A study of Arabidopsis thaliana with 6 samples.

Results

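The genes of the mitochondrial genome were taken as every row of the count table whose identifier begins with ATMG, which gave 152 of 32833 genes. The table covers 6 RNA-seq libraries of *Arabidopsis thaliana* root-tip protoplasts, cells freed from their walls, from seedlings 7 days old on MS medium. Protoplasts were sorted by DNA content, taken as a proxy of the cell cycle phase, into 3 gates of 2 libraries each. The gate named G1 held 2n cells, G2M held 4n cells, and S held those whose ploidy lay in between. Every library came from Col0/H2B-RFP/CDT1a-GFP plants, which carry a red reporter of histone H2B and a green reporter of the replication licensing factor CDT1a, so no gate lacked the reporters. A gate of this kind reads DNA content alone, and cells that leave the cycle with the same content fall into it too. No label says that the 2 libraries of a gate came from separate plants or sorts, so each p-value measures only the spread between these libraries. The G1 libraries had 128604597 and 61572560 counts, the S libraries 208406910 and 13114711, and the G2M libraries 15947211 and 31629519, so both the deepest and the shallowest library belonged to the S gate. Root-tip markers held 245 to 308 CPM (counts of a gene relative to its library total, after TMM scaling) when 7 of them were summed, against 4.52 to 10.3 CPM for 5 photosynthetic shoot markers. WOX5, the marker of the quiescent centre, had at most 0.542 CPM in any library. Levels of the other 6 root-tip markers were 4.33 CPM or higher.

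Plant mitochondria keep a small genome that encodes ribosomal RNAs, a few ribosomal proteins, factors that attach haem to cytochrome c, and core subunits of the respiratory chain and of ATP synthase, while most proteins of the organelle come from nuclear genes. Its genes are read by phage-type RNA polymerases that the nucleus encodes, and its transcripts are spliced and edited from C to U. A poly(A) tail marks plant mitochondrial RNA for decay, unlike that of nuclear messengers, and the SMART-Seq v4 kit used here primes cDNA on such tails. The sources used here name 24 of the 152 genes as known proteins or protein-like reading frames and 21 as proteins of unknown function, through notes on nuclear relatives in the RefSeq annotation. A further 8 have a nuclear pseudogene as their only note, 98 have no annotation in these sources, and ATMG00020 is a ribosomal RNA gene. RefSeq lists 3 ribosomal RNA genes in this genome, and the 98 may hold the others.

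A copy of much of the mitochondrial genome lies on nuclear chromosome 2 of this species, and 3 stretches are shown because they bear on whose reads a mitochondrial gene holds. The first 60 bases of the RefSeq genes atp1 (mitochondrial positions 68562 to 68621, minus strand) and nad3 (288044 to 288103, plus strand) are the same in both genomes, at chr2:3362505-3362564 (plus strand) and chr2:3270008-3270067 (plus strand) of TAIR10.1.
atp1, both genomes: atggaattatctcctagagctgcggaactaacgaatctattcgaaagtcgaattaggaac
nad3, both genomes: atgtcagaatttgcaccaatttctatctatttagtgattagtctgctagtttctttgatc
A stretch of ccmFN1, a cytochrome c maturation gene, differs at 1 base, which is in capitals (mitochondrial positions 316036 to 316095 and chr2:3297913-3297972, both plus strand).
ccmFN1, mitochondrion: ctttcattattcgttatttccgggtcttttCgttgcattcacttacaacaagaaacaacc
ccmFN1, chromosome 2: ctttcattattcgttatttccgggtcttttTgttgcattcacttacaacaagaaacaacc
In TAIR10.1, 67.6% of all 100-base windows of the 367808-base mitochondrial genome also occurred, letter for letter, in the nuclear chromosomes, nearly all of them on chromosome 2 (67.5%). Of 33 RefSeq protein-coding mitochondrial genes, 18 had at least 90% of their windows there and 5 had none. All 3 RefSeq ribosomal RNA genes of the mitochondrion had no such window.

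Mitochondrial genes took a smaller share of the S and G2M libraries than of the G1 libraries, with and without the ribosomal RNA gene ATMG00020. The 152 genes held 8.23% and 6.53% of all counts of the G1 libraries, 3.67% and 3.10% of the S libraries, and 2.94% and 3.13% of the G2M libraries. The S libraries averaged 3.38% ± 0.406, against 7.38% ± 1.21 in G1 (SD, n = 2 each), a ratio of 0.458. G2M averaged 3.03% ± 0.137 (SD, n = 2), a ratio of 0.411 to G1, and its range overlapped that of S. ATMG00020 alone held 7.85% and 6.19% of the G1 libraries, 3.47% and 2.97% of the S libraries, and 2.83% and 3.01% of the G2M libraries, which was 94.6% to 96.3% of all mitochondrial counts. The total share is therefore close to a measure of 1 gene. In a bulk library, fewer cells with many mitochondria and less mitochondrial RNA per cell cannot be told apart. A share is also relative to all other counts of its library, so it gives no absolute amount of mitochondrial RNA.

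With ATMG00020 taken out of both numerator and total, the remaining 151 genes held 0.417% and 0.360% of the G1 libraries, 0.205% and 0.125% of the S libraries, and 0.112% and 0.124% of the G2M libraries. The 3 gates did not overlap in this measure, but S replicate 2 and G2M replicate 2 lay within counting error of each other. Their Wilson 95% intervals were 0.1232% to 0.1271% and 0.1226% to 0.1250%, which overlap. The 151 genes are not known to be free of ribosomal RNA, since ATMG01390, ATMG00030 and other rows have no annotation here. S averaged 0.165% ± 0.0568, against 0.388% ± 0.0406 in G1 (SD, n = 2 each), and G2M averaged 0.118% ± 0.00811 (SD, n = 2). An exact two-sided permutation test over 15 partitions of the libraries gave p = 0.0667, the smallest it can give, and p = 0.133 for the share with ATMG00020. Between 2 gates the exact test cannot go below p = 0.333, which was its value for S against G1 and for G2M against G1 in both measures. Wilson 95% intervals for these shares were at most 0.00937 percentage points to either side, and they cover counting error only. With ATMG01390 and ATMG00030 also left out, the other 149 genes fell less in S. They held 0.129% ± 0.00519 of all counts in G1 and 0.0801% ± 0.0349 in S (SD, n = 2 each), a ratio of 0.622. In G2M they held 0.0556% ± 0.00537 (SD, n = 2), a ratio of 0.432 to G1, and the range overlapped that of S. The 133 plastid genes, the other organelle genome, held 0.502% and 0.524% of the G1 libraries, 0.598% and 0.381% of the S libraries, and 0.388% and 0.455% of the G2M libraries, so plastid shares of S spanned those of G1 and both of G2M lay below both of G1 (ratio 0.822, exact permutation p = 0.333, the smallest possible).

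**Figure D1:**
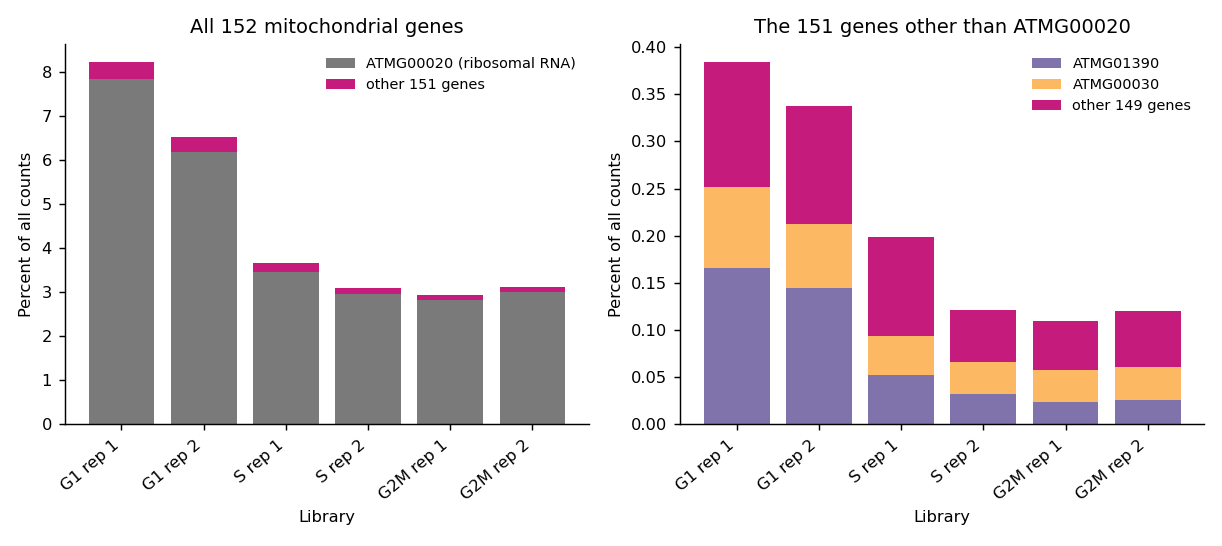
Share of all counts in each of the 6 libraries, in percent, for all 152 mitochondrial genes (left, with ATMG00020 in grey) and for the 151 genes other than ATMG00020 (right, split into ATMG01390, ATMG00030 and 149 others). Both G1 bars stand above every S and G2M bar, and among the 149 genes S replicate 1 (0.105%) is closer to G1 than to S replicate 2 (0.0555%).

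ATMG00020, ATMG00030 and ATMG01390 had the most mitochondrial counts. ATMG00020 had 77287 and 57743 CPM in G1, 32693 and 30584 CPM in S, and 30040 and 31896 CPM in G2M. It fell by 1.09 ± 0.14 on the log2 scale in S versus G1 (SE; edgeR quasi-likelihood test, adjusted p = 2.02e-04) and by 1.12 ± 0.14 in G2M versus G1 (adjusted p = 4.31e-05). G2M and S differed by -0.03 ± 0.14 (adjusted p = 0.893). ATMG00030, which has no annotation in these sources, had 843 and 634 CPM in G1, 386 and 347 CPM in S, and 358 and 369 CPM in G2M. Its count was a steady 1.09% to 1.19% of that of ATMG00020 in all 6 libraries. How reads of neighbouring or overlapping genes were counted is unknown here.

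ATMG01390, also without annotation here, fell further than ATMG00020. It had 1636 and 1346 CPM in G1, 495 and 331 CPM in S, and 251 and 274 CPM in G2M, so no gate overlapped another. The log2 fold change was -1.85 ± 0.18 in S versus G1 (edgeR adjusted p = 1.86e-05), -0.65 ± 0.17 in G2M versus S (adjusted p = 0.0195) and -2.50 ± 0.18 in G2M versus G1 (adjusted p = 4.76e-07). Its counts were 2.12% and 2.33% of those of ATMG00020 for G1, 1.51% and 1.08% for S, and 0.837% and 0.860% for G2M. This ratio needs no library total.

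Within the organelle the picture depended on which genes made up the total. When the library total was taken as the mitochondrial counts without ATMG00020, the log2 fold change of ATMG00020 was 0.12 in S versus G1 and 0.39 in G2M versus G1, neither of them called by edgeR (adjusted p = 0.776 and 0.347). With this total the median of the 142 genes was 0.61 in S versus G1, where 31 were called higher and 1 lower, and 0.41 in G2M versus G1, where 14 were called higher and 1 lower. ATMG01390 made up 43.3% and 42.8% of it for G1, 26.5% and 26.5% for S, and 21.7% and 21.6% for G2M. When ATMG01390 and ATMG00030 were left out of that total as well, the medians were 0.14 in S versus G1, where 2 genes were called higher and 3 lower, and -0.02 in G2M versus G1, where 3 were called higher and 4 lower. No gene was called lower in G2M versus S by edgeR with either total. The falls given below are thus relative to all genes of the library. Among the 149 remaining genes, those without annotation held 61.3% to 65.5% of the counts and the 24 named ones 27.3% to 32.5%, over the 6 libraries.

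In S against G1, 34 of the 142 tested mitochondrial genes fell (edgeR, adjusted p below 0.05). Over all genes 7.28% fell and 13.9% rose. The median log2 fold change of the 142 was -0.41, beside 0.08 over all 25364 genes tested. No mitochondrial gene was called higher by edgeR. At an unadjusted p below 0.05, 1 was higher and 46 were lower, while DESeq2 called 0 higher and limma-voom 10, with a median of -0.0954 in the limma-voom fit. Each of the 34 had both S libraries below both G1 libraries, and their log2 fold changes ran from -2.18 to -0.88. Such separation held for 62 of the 142 genes (43.7%), and for 25% of all genes. Both S libraries lay above both G1 libraries in 7 of the 142 genes (4.93%), beside 30.2% of all genes. The 10 untested genes were too low for the filter, with at most 0.375 CPM in any library, and 2 of them, ATMG00050 and ATMG01070, had no count anywhere.

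The 2 S libraries differed for the mitochondrial genes of low level. S replicate 1 was above S replicate 2 in 134 of 142 genes, with a median log2 ratio of 0.86, while ATMG00020 itself had a ratio of 0.10. The same median was 0.14 between the G1 libraries and -0.08 between the G2M libraries, replicate 1 over replicate 2. Relative to the G1 mean, the median gene stood at 0.04 in S replicate 1 and at -1.07 in S replicate 2, beside -1.04 and -0.99 in the G2M libraries. As many as 66 genes were higher in S replicate 1 than in both G1 libraries, and 7 were in S replicate 2. These patterns between single libraries were not counted over all genes. Without S replicate 1, 55 genes were called lower in S versus G1 and the median was -1.16. Without S replicate 2, 30 were called lower, 4 were called higher and the median was 0.01. Leaving out G1 replicate 1 left 13 called lower and leaving out G1 replicate 2 left 23. S replicate 1 is the deepest library and S replicate 2 the shallowest, where the median count of the 152 genes was 18. With every library thinned to the total of S replicate 2, 111 mitochondrial genes passed the filter, and their median in S versus G1 was -0.67. The fits without S replicate 1 and without S replicate 2 tested 138 and 146, so these medians are not over the same genes as that of the 142.

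**Figure D2:**
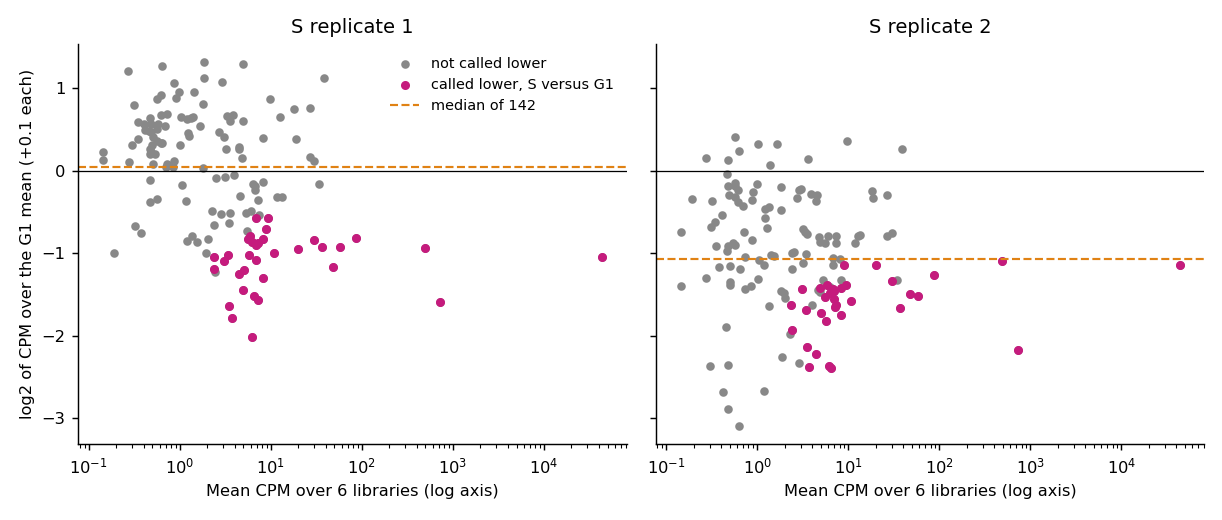
Log2 ratio of CPM in S replicate 1 (left) and S replicate 2 (right) to the mean of the G1 libraries, with 0.1 added to each, for the 142 tested mitochondrial genes against their mean CPM (log axis). The dashed median lies at 0.04 in S replicate 1 and at -1.07 in S replicate 2, and the 34 genes called lower (magenta) lie below 0 in both.

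Names rest on notes of nuclear relatives, so every named gene has a nuclear relative with which it may share reads. Only 17 of the 152 genes could be given a RefSeq symbol, while RefSeq lists 33 protein-coding genes. The groups below are therefore incomplete, and the 5 RefSeq protein-coding genes with no window in the nucleus are among those left out. Genes for the respiratory chain and ATP synthase were the largest named group. Of 9 such genes, 5 fell in S versus G1 (55.6%, beside 7.28% of all genes), with a median log2 fold change of -1.01, and the other 4 were not called. The 5 were nad3, a part of nad2 (ATMG01320), and atp1, atp6 and atp8 of ATP synthase. Both nad genes encode subunits of complex I, which passes electrons from NADH to ubiquinone. For nad3 (ATMG00990) the level was 14.6 and 11.2 CPM in G1, 3.12 and 2.43 CPM in S, and 2.73 and 2.98 CPM in G2M. It fell by 2.18 ± 0.28 in S versus G1 (edgeR adjusted p = 2.06e-04), the lowest value of any mitochondrial gene in that comparison, and differed by 0.01 ± 0.30 between G2M and S. Levels of atp1 (ATMG01190), the alpha subunit of the catalytic head, were 167 and 109 CPM in G1, 78.5 and 57.2 CPM in S, and 49.7 and 60.9 CPM in G2M. Both S libraries of atp1 lay below both G1 libraries, with a log2 fold change of -1.01 ± 0.20 (edgeR adjusted p = 0.00349). For atp8 (ATMG00480), a peripheral subunit of the membrane part, the values were 11.2 and 10.1 CPM in G1, 5.82 and 3.76 CPM in S, and 3.53 and 3.28 CPM in G2M. The proton channel subunit atp6 (ATMG00410) had 14.6 and 13.9 CPM in G1, 7.99 and 5.25 CPM in S, and 3.53 and 4.12 CPM in G2M, and was lower at each step without overlap. RefSeq lists another atp6 gene in the mitochondrial genome. Of their windows, 69.6% and 62.5% occur at more than 1 place in that genome, so reads of ATMG00410 may also be shared within it.

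Complex III, complex IV and the ATP synthase ring were represented by cob, cox3 and atp9, which were not called in S versus G1. For cob (ATMG00220), cytochrome b of complex III, the levels were 11.5 and 8.49 CPM in G1, 8.78 and 4.47 CPM in S, and 2.33 and 4.99 CPM in G2M. Those of cox3 (ATMG00730), a core subunit of cytochrome c oxidase, were 7.02 and 7.46 CPM in G1, 5.82 and 2.59 CPM in S, and 2.13 and 2.65 CPM in G2M. The ring subunit atp9 (ATMG01080) had 49.99 and 48.9 CPM in G1, 44.2 and 19.6 CPM in S, and 19.7 and 21.6 CPM in G2M. In each of these 3 genes S replicate 2 lay near or within the G2M values while S replicate 1 lay nearer to G1. Their log2 fold changes in S versus G1 were -0.54 ± 0.37, -0.72 ± 0.36 and -0.59 ± 0.26, with adjusted p of 0.367, 0.203 and 0.139 (edgeR). A part of nad1 (ATMG01275) had 3.38 and 3.58 CPM in G1, 1.69 and 1.18 CPM in S, and 0.600 and 1.24 CPM in G2M.

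Of 5 named ribosomal protein genes, 4 fell in S versus G1 (80%, beside 7.28% of all genes). The median log2 fold change of the 5 was -1.17. The largest change among them was in rps12 (ATMG00980), a protein of the small ribosomal subunit, with 7.20 and 6.58 CPM in G1, 2.14 and 1.49 CPM in S, and 1.599 and 1.84 CPM in G2M. It fell by 1.88 ± 0.36 in S versus G1 (edgeR adjusted p = 0.00270). For rps4 (ATMG00290) the levels were 8.66 and 6.65 CPM in G1, 3.15 and 1.57 CPM in S, and 3.47 and 3.32 CPM in G2M, so G2M was above both S libraries, though not called (0.44 ± 0.37, adjusted p = 0.418). For rps7 (ATMG01270) they were 13.8 and 11.7 CPM in G1, 7.79 and 5.72 CPM in S, and 7.06 and 7.24 CPM in G2M. The large-subunit gene rpl5 (ATMG00210) fell by 1.17 ± 0.32 in S versus G1 (edgeR adjusted p = 0.0201). Its neighbour in function rpl2 (ATMG00560) was not called (-0.60 ± 0.35, adjusted p = 0.283).

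None of the 3 named cytochrome c maturation genes was called in S versus G1 by edgeR, and 1 of them had an unadjusted p below 0.05. For ccmFC (ATMG00180) the levels were 16.5 and 15.03 CPM in G1, 12.7 and 8.55 CPM in S, and 7.66 and 9.75 CPM in G2M. Both S libraries were below both G1 libraries, with a log2 fold change of -0.54 ± 0.23 (edgeR adjusted p = 0.116). In ccmFN2 (ATMG00960) the levels were 3.48 and 2.86 CPM in G1, 4.44 and 2.51 CPM in S, and 1.53 and 1.41 CPM in G2M, and the S libraries spanned those of G1. For ccmC (ATMG00900) they were 3.64 and 3.38 CPM in G1, 3.30 and 1.73 CPM in S, and 1.27 and 1.74 CPM in G2M. Of the 7 other named reading frames, none was called in S versus G1 by edgeR, and none had an unadjusted p below 0.05. Over all genes 7.28% fell and 13.9% rose, so the lack of calls among 3 or 7 genes does not set these groups apart. The cytochrome b-like reading frame ATMG00590 had 7.66 and 8.67 CPM in G1, 14.98 and 10.5 CPM in S, and 3.86 and 12.6 CPM in G2M, with both S libraries above both of G1 (0.66 ± 0.38, adjusted p = 0.271).

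**Figure D3:**
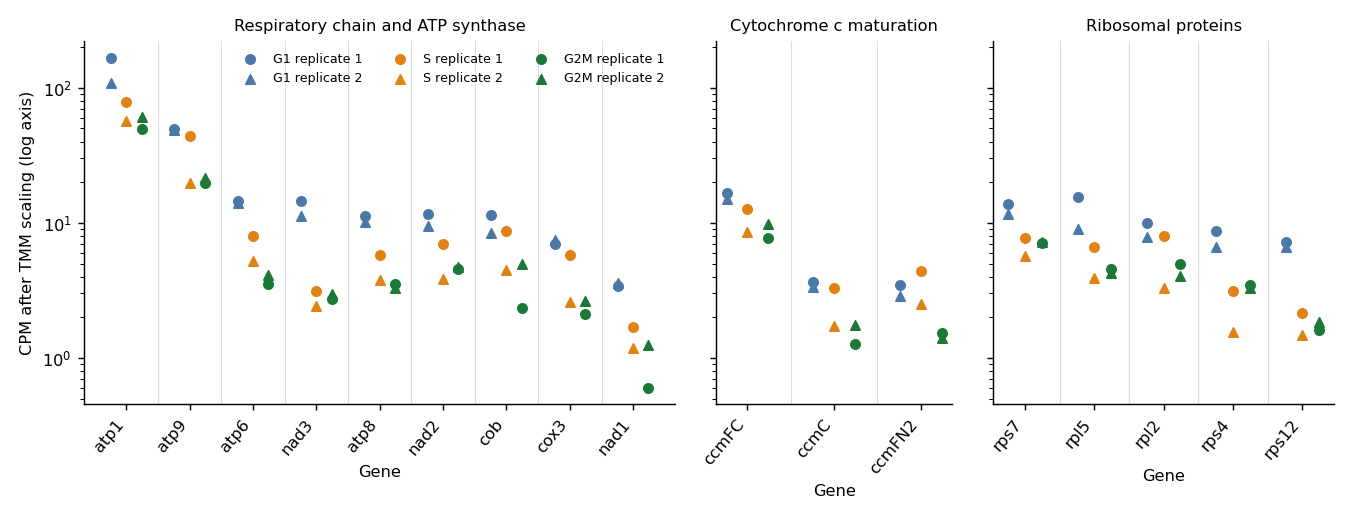
CPM after TMM scaling (log axis) of 17 mitochondrial protein genes in each library, grouped by role, with gates in the order G1, S, G2M and a marker for each replicate. Both G2M libraries lie below both G1 libraries in every gene shown, beside 42% of all genes. S replicate 2 (triangle) is below S replicate 1 (circle) in each, a pattern that was not counted over all genes.

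In G2M against G1, 55 of 142 mitochondrial genes fell, and no gene was called higher by edgeR, limma-voom or DESeq2, or had an unadjusted p below 0.05 in that direction. Over all genes 17.1% fell and 23.2% rose. The median log2 fold change of the 142 was -1.07, beside -0.14 over all genes. Both G2M libraries lay below both G1 libraries in 116 of the 142 (81.7%), beside 42% of all genes, and above them in 0, beside 36.4% of all genes. All 9 named respiratory chain and ATP synthase genes fell, with a median of -1.59. All 5 named ribosomal protein genes fell too, with a median of -1.18. The values of the first group ran from -2.17 ± 0.29 for nad3 (edgeR adjusted p = 6.66e-05) to -1.19 ± 0.30 for the part of nad2 (adjusted p = 0.00726). Of the cytochrome c maturation genes ccmFC fell by 0.85 ± 0.23 (adjusted p = 0.0106), while ccmC (-1.20 ± 0.45, adjusted p = 0.0506) and ccmFN2 (-1.11 ± 0.43, adjusted p = 0.0577) were not called. The 1 other named reading frame called was ATMG01090, an atp9-like frame with 33.3 and 32.5 CPM in G1, 36.8 and 18.9 CPM in S, and 18.3 and 20.1 CPM in G2M (-0.77 ± 0.24, adjusted p = 0.0208). Of 21 proteins of unknown function 3 fell, and of 89 tested genes without annotation 33 did. Leaving out 1 library at a time left between 34 and 69 genes called lower, the lowest count being that without G1 replicate 1, and 35 remained without G2M replicate 1. Medians of the 138 to 146 genes tested in those fits ran from -1.12 to -0.96.

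In G2M against S, 3 of 142 mitochondrial genes fell, beside 10.1% of all genes that fell and 9.46% that rose. They were ATMG01390, atp6 (-0.82 ± 0.27, edgeR adjusted p = 0.0487) and ATMG01370, which has no annotation here and had 18.9 and 19.5 CPM in G1, 15.3 and 11.1 CPM in S, and 8.53 and 7.07 CPM in G2M (-0.79 ± 0.21, adjusted p = 0.0218). No gene rose by edgeR, DESeq2 or limma-voom, and at an unadjusted p below 0.05 20 were lower and 0 higher. The median log2 fold change was -0.62, beside -0.10 over all genes, and 124 of 142 values were below 0. It was -0.46 for the 133 plastid genes. For 69 tested nuclear genes with at least 90% of their windows in the mitochondrial genome it was -0.56. A negative median was thus not particular to mitochondrial genes. Both G2M libraries lay below both S libraries in 45 mitochondrial genes (31.7%), a share close to the 31.4% of all genes, and above them in 3, beside 28.6% of all genes. The mitochondrial median rested on S replicate 1. Without it the median was 0.02 and no gene was called in either direction, and without S replicate 2 it was -0.86 and 36 genes were called lower. Without either G2M library fewer than 3 genes were called lower, namely 0 without G2M replicate 1 and 2 without G2M replicate 2.

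**Figure D4:**
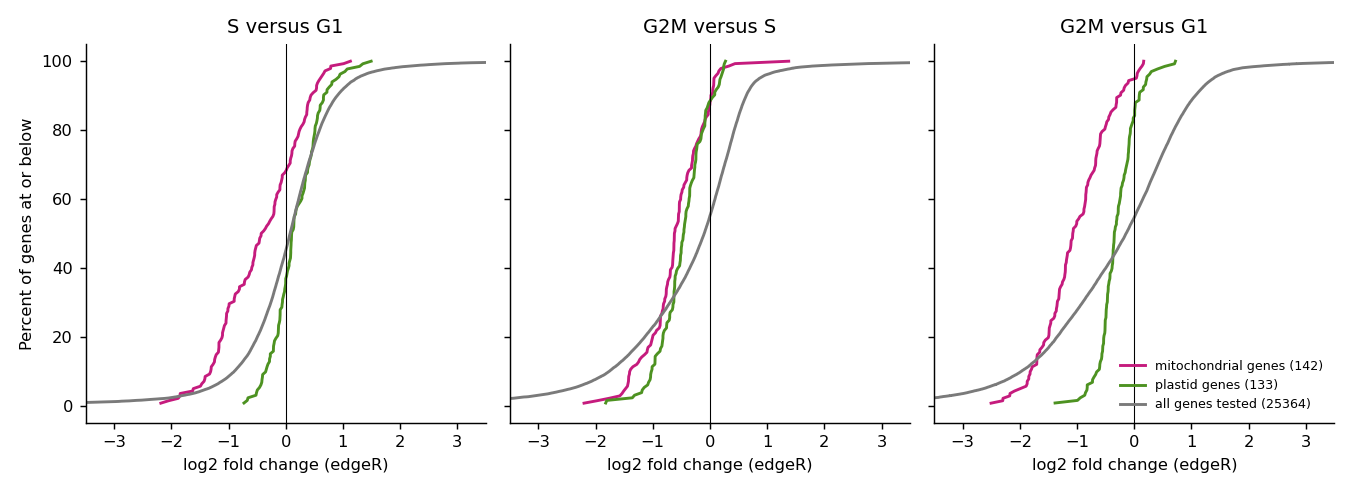
Cumulative percent of genes at or below each log2 fold change (edgeR) for 142 mitochondrial genes, 133 plastid genes and all 25364 genes tested, for S versus G1 (left), G2M versus S (middle) and G2M versus G1 (right). The mitochondrial median stands at -0.41, -0.62 and -1.07 in the 3 comparisons and that of all genes at 0.08, -0.10 and -0.14. That of the plastid genes stands at 0.11, -0.46 and -0.35.

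Genes without annotation were among those with the largest changes. ATMG00516 had 7.83 and 7.71 CPM in G1, 2.19 and 1.41 CPM in S, and 2.00 and 1.24 CPM in G2M, with a log2 fold change of -2.05 ± 0.38 in S versus G1 (edgeR adjusted p = 0.00200). For ATMG00160 the levels were 14.5 and 13.6 CPM in G1, 4.66 and 4.39 CPM in S, and 2.33 and 3.75 CPM in G2M, with a log2 fold change of -1.63 ± 0.27 in S versus G1 (adjusted p = 0.00103). In both genes the S and G2M libraries lay far below the G1 libraries. ATMG00830, ATMG00580, ATMG00090 and ATMG00660, which are among the 12 mitochondrial genes with the highest counts, fell in S versus G1 by 1.17 ± 0.19, 1.31 ± 0.16, 1.22 ± 0.22 and 1.04 ± 0.18. None of these 4 was called between G2M and S by edgeR, with adjusted p from 0.409 to 0.911.

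A pair of high-count genes did not follow this pattern. ATMG01400 had 16.9 and 44.1 CPM in G1, 66.7 and 36.5 CPM in S, and 29.9 and 37.8 CPM in G2M, and ATMG00060 had 19.2 and 32.1 CPM in G1, 43.6 and 20.9 CPM in S, and 20.3 and 24.6 CPM in G2M. Gates overlapped in both genes and neither was called in any comparison (edgeR adjusted p from 0.151 to 0.743). ATMG00670 had 37.8 and 36.9 CPM in G1, 40.5 and 22.1 CPM in S, and 16.7 and 27.0 CPM in G2M, and was called in G2M versus G1 only (-0.76 ± 0.26, adjusted p = 0.0336). Over all 142 genes the lowest library was G2M replicate 1 in 57, S replicate 2 in 53 and G2M replicate 2 in 26. The highest was S replicate 1 in 63 and G1 replicate 1 in 62. In 15 genes all G1 values exceeded all S values and those exceeded all G2M values. The shares of all genes with these patterns were not counted, so they are not read as particular to mitochondrial genes.

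Levels per kilobase of RefSeq coding length could be set side by side for 14 named genes. In G1, atp9 stood first with 220 ± 3.32 CPM per kb and atp1 next with 90.4 ± 26.8 CPM per kb (SD, n = 2 each). Then came nad3 with 36.2 ± 6.69 CPM per kb, followed by rps7 with 28.6 ± 3.38 CPM per kb, and these 2 differed by little more than their spread. At the low end were ccmFN2 with 5.18 ± 0.707 CPM per kb and ccmC with 4.55 ± 0.236 CPM per kb, which did not differ beyond their spread. In G2M the level of nad3 was 8.003 ± 0.495 CPM per kb, below rps7 with 15.996 ± 0.276 CPM per kb (SD, n = 2 each). All these levels depend on how reads shared with the nuclear copy were assigned.

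Nuclear relatives on chromosome 2 held counts of the same size as many of the named mitochondrial genes. The annotation notes pair 45 mitochondrial genes with nuclear relatives in 46 pairs, and in 33 pairs at least 90% of the 100-base windows of the nuclear gene occur in the mitochondrial genome. In 27 of those 33 the nuclear gene held more counts. These counts were not scaled by gene length, and a relative can be longer. The relative of cob, AT2G07727, spans 3144 windows, against 1083 for cob. The mitochondrial member's share of the pair ranged from 5.05% to 83.4%, with a median of 41.7%. In 15 of the 33 pairs it lay between 40% and 60%. For atp1 the mitochondrial counts were 21765 and 7180 for G1, 17366 and 729 for S, and 746 and 1819 for G2M. Its relative AT2G07698 had 27368 and 9064 counts for G1, 21645 and 938 for S, and 939 and 2294 for G2M. The mitochondrial row of atp1 thus held 43.7% to 44.5% of the pair in every library. For rps12 the counts were 941 and 434 for G1, 473 and 19 for S, and 24 and 55 for G2M. Its relative AT2G07675 had 950 and 456 for G1, 428 and 26 for S, and 29 and 60 for G2M. The alignment of atp1 to chromosome 2 covers all 1524 bases of the gene with 0 mismatches. Counts of such a pair therefore cannot be told apart by genomic sequence within the gene. Bases edited from C to U in the reads were not examined.

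The table holds 73 nuclear genes with at least 90% of their windows in the mitochondrial genome, which together took 0.0879% and 0.0775% of the G1 libraries, 0.0743% and 0.0389% of the S libraries, and 0.0331% and 0.0427% of the G2M libraries. Of 69 that were tested, 11 fell in S versus G1 and 28 in G2M versus G1, with median log2 fold changes of -0.31 and -1.01. Over all genes 7.28% and 17.1% fell in these comparisons, with medians of 0.08 and -0.14. When counts of the nuclear relatives were added to their mitochondrial members, the medians of the 142 were -0.36 in S versus G1 and -1.05 in G2M versus G1. Ribosomal RNA genes, the class of ATMG00020, have no such window in the nuclear chromosomes.

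**Figure D5:**
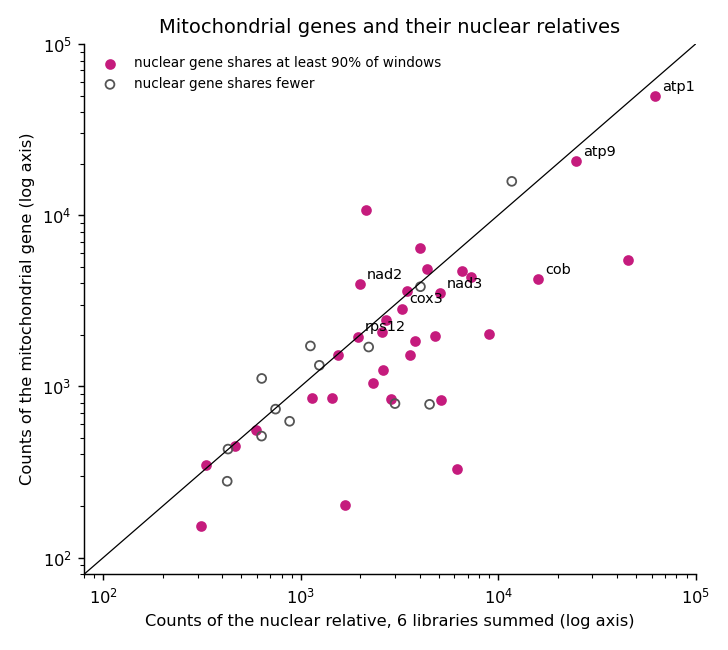
Counts of mitochondrial genes (vertical, log axis) against those of their nuclear relatives (horizontal, log axis), summed over 6 libraries, for 46 pairs with a line of equality. Filled points are the 33 pairs whose nuclear gene has at least 90% of its windows in the mitochondrial genome, 27 of which lie below the line.

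Nuclear genes supply most subunits of the same respiratory complexes. Of 39 listed nuclear genes of respiratory complexes I to V, 6 rose and 7 fell in S versus G1, 15 rose and none fell in G2M versus S, and 24 rose and 5 fell in G2M versus G1, with medians of 0.07, 0.34 and 0.38. As shares, 15.4% rose and 17.9% fell in S versus G1, where 13.9% of all genes rose and 7.28% fell. In G2M versus S 38.5% rose, beside 9.46% of all genes, and in G2M versus G1 61.5% rose and 12.8% fell, beside 23.2% and 17.1% of all genes. These counts moved with single libraries. In G2M versus S, 0 rose without G2M replicate 1, 1 without G2M replicate 2, 6 without S replicate 1 or either G1 library, and 35 without S replicate 2. In G2M versus G1, 12 to 15 rose and 1 or 2 fell without any 1 of the G1 or G2M libraries. In S versus G1, 1 rose without G1 replicate 2, 3 without G2M replicate 1 and 10 without S replicate 1. The flavoprotein subunit SDH1-1 of succinate dehydrogenase (complex II) had 306 and 292 CPM in G1, 400 and 434 CPM in S, and 608 and 581 CPM in G2M, and rose by 0.99 ± 0.11 in G2M versus G1 (edgeR adjusted p = 2.04e-05). The complex I subunit EMB1467 had 277 and 228 CPM in G1, 390 and 421 CPM in S, and 537 and 476 CPM in G2M. Cytochrome c gene CYTC-2 moved down, with 26.7 and 29.4 CPM in G1, 15.5 and 16.1 CPM in S, and 15.2 and 15.2 CPM in G2M. The nuclear genes are read by other polymerases and their messengers carry stable tails, so levels of the 2 genomes are not compared here.

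The nuclear list of mitochondrial DNA and RNA machinery rose in 12 of 17 genes in S versus G1, 6 in G2M versus S and 16 in G2M versus G1, and no gene of it fell. The shares that rose were 70.6%, 35.3% and 94.1%, beside 13.9%, 9.46% and 23.2% of all genes. In G2M versus S, 1 rose without G2M replicate 1, 2 without G2M replicate 2 and 11 without S replicate 2. Medians were 0.82, 0.36 and 1.08. The mitochondrial RNA-degrading enzyme mtPNPase had 21.3 and 23.4 CPM in G1, 63.8 and 68.7 CPM in S, and 114 and 103 CPM in G2M, a log2 fold change of 2.28 ± 0.14 in G2M versus G1 (edgeR adjusted p = 1.18e-07). RPOTmp, a phage-type RNA polymerase of mitochondria and plastids, had 15.96 and 15.94 CPM in G1, 43.4 and 33.2 CPM in S, and 52.2 and 46.8 CPM in G2M. The editing factor MORF8 had 194 and 189 CPM in G1, 236 and 239 CPM in S, and 388 and 392 CPM in G2M. In each of these 3 genes both S libraries were above both G1 libraries and both G2M libraries were above both S libraries.

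Of 6 genes of alternative respiration, which bypasses parts of the proton-pumping chain, 4 fell in G2M versus S, and 3 fell and 1 rose in G2M versus G1. Of all genes, 10.1% fell in G2M versus S, and 17.1% fell and 23.2% rose in G2M versus G1. Without either G2M library 2 fell in G2M versus S, and without either S library 5 fell in G2M versus G1, where none rose without G2M replicate 2. The alternative oxidase AOX1A had 151 and 152 CPM in G1, 136 and 159 CPM in S, and 82.8 and 79.8 CPM in G2M. The internal NADH dehydrogenase NDA1 had 27.2 and 21.6 CPM in G1, 26.7 and 18.5 CPM in S, and 7.00 and 7.97 CPM in G2M. In both genes the S libraries overlapped those of G1, and both G2M libraries lay below.

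Markers of cell types moved with the gates too. SMB, of the root cap, had 111 and 78.5 CPM in G1, 44.6 and 47.7 CPM in S, and 20.6 and 14.9 CPM in G2M. WER, of the epidermis and lateral root cap, had 96.0 and 89.2 CPM in G1, 56.8 and 61.8 CPM in S, and 50.2 and 52.9 CPM in G2M. SCR, of the endodermis and quiescent centre, had 4.33 and 5.42 CPM in G1, 7.65 and 6.04 CPM in S, and 16.8 and 22.1 CPM in G2M, and SHR, of the stele, had 22.5 and 30.7 CPM in G1, 45.4 and 55.8 CPM in S, and 68.0 and 72.5 CPM in G2M. Of the 7 root-tip markers, 2 rose and 2 fell in S versus G1, and 3 rose and 2 fell in G2M versus G1, beside 13.9% and 7.28% of all genes in S versus G1 and 23.2% and 17.1% in G2M versus G1. Their part in the mitochondrial values was not tested.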

How the data were processed

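The authors deposited raw counts of reads per gene in 6 libraries; per the submitters' processing notes, Trimmomatic 0.39, HISAT2 2.2.1, featureCounts and the TAIR10 build were used, and how reads that match 2 places or strands were counted is not given in the sources used here. A deposited table named for TPM was not used, because its columns sum to far below what that unit gives. Counts were tested with edgeR 4.0.16 (TMM, default filter, 1 quasi-likelihood fit of 3 gates, Benjamini-Hochberg over 25364 genes, adjusted p below 0.05) in R 4.3.3. CPM are after TMM scaling, and shares are of unscaled counts. Windows of 100 bases were matched between genomes in TAIR10.1, and whole genes with blastn 2.17.0+; the sequences are RefSeq's. The mitochondrial identifiers are not in that annotation, so names come only from notes on nuclear relatives, and a list by complex that needs more names was not used. Genes named are the 12 with the highest mean CPM, the 3 largest called changes in each direction per comparison, the 24 annotated proteins, and from each nuclear list genes among the 2 with the smallest adjusted p. Members and lists were chosen with earlier results of these data known. The alternatives tried are in the closing section; DESeq2 1.42.0 and limma 3.58.1 were among them.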

Additional observations from a re-analysis of the deposited data

How the results depend on the processing

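In each fit of all 6 libraries on whole-library totals, the mitochondrial median was below 0 in all 3 comparisons. Of 49 named fold changes, between 44 and 48 kept sign and side of the threshold under each other scaling, filter, tool, block or thinning on whole-library totals. Under totals of mitochondrial counts without ATMG00020, 18 did, and with ATMG01390 and ATMG00030 also left out of the total, 22 did; both totals show composition within the organelle, and the second was chosen after seeing the data, as was adding nuclear relatives. A change of sign was counted where either fit called the value.

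With the first of these totals, 31 mitochondrial genes were called higher and 1 lower in S versus G1 (median 0.61), 0 lower in G2M versus S, and 14 higher and 1 lower in G2M versus G1 (median 0.41). Signs changed in S versus G1 for ATMG00020 (0.12), ATMG00030 (0.19), ATMG01190 (0.16), ATMG00660 (0.0710), ATMG01320 (0.19), ATMG00410 (0.0348) and ATMG01270 (0.24). In G2M versus G1 they changed for ATMG00020 (0.39), ATMG00670 (0.72), ATMG00060 (1.27), ATMG01320 (0.32), ATMG00180 (0.65) and ATMG01090 (0.72). With the second, 2 were called higher and 3 lower in S versus G1 (median 0.14), 0 lower in G2M versus S, and 3 higher and 4 lower in G2M versus G1 (median -0.0223), and signs changed in G2M versus G1 for ATMG00670 (0.28), ATMG00180 (0.21) and ATMG01090 (0.29).

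On whole-library totals, limma-voom called 10 and the unfiltered fit 1 mitochondrial gene higher in S versus G1. In G2M versus S the count called lower was 6 with DESeq2, 12 with limma-voom, 9 without a filter and 5 with nuclear relatives added. The median in G2M versus G1 was -1.29 with upper-quartile factors and -1.23 in thinned libraries, where 111 mitochondrial genes were tested. The median of all genes shifted by -0.18 in S versus G1 and -0.22 in G2M versus G1 with upper-quartile factors, by -0.18 without a filter and 0.13 with thinning in G2M versus G1, and by 1.17 and 1.501 (first organelle total) or 0.72 and 1.07 (second) in those comparisons.

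Nuclear respiratory genes called higher in G2M versus S were 23 with RLE factors, 32 with DESeq2, 25 with limma-voom and 7 with only the 2 gates fitted. The last gave 2 higher in S versus G1. Upper-quartile factors gave 13 lower in S versus G1 and 15 higher in G2M versus G1. Alternative respiration genes called lower in G2M versus G1 were 5 with upper-quartile factors, nuclear factors, no filter, DESeq2, limma-voom, thinning or 2 gates.

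Same-numbered libraries did not deviate together (r from -0.0649 to 0.0311 over genes), so the replicate numbers were not taken as pairs. With a replicate block, 8 nuclear respiratory genes were called higher in G2M versus S and 3 lower in G2M versus G1, and of 49 named fold changes 1 lost its call.

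Leaving out each library in turn, mitochondrial genes called higher ran from 0 to 4 and lower from 13 to 55 in S versus G1 (median from -1.16 to 0.0139), lower from 0 to 36 in G2M versus S (median from -0.86 to 0.0195), and higher from 0 to 1 and lower from 34 to 69 in G2M versus G1. Nuclear respiratory genes called higher ran from 1 to 10 in S versus G1, 0 to 35 in G2M versus S and 12 to 25 in G2M versus G1, where those lower ran from 1 to 5. The DNA and RNA machinery called higher in G2M versus S ran from 1 to 11. Alternative respiration genes called lower ran from 2 to 3 in G2M versus S and 2 to 5 in G2M versus G1, where those higher ran from 0 to 1. The G2M minus S difference in the share of the 149 lower genes ran from -0.0492 to 9.34e-05 percentage points. A lone library left in a gate was assumed to vary like the others. In the shallowest library 3 counts are worth 0.229 CPM, which limits the lowest genes. The causes of these changes were not tested.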
